A study of Homo sapiens with 20 samples.

Results

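MHC class I molecules carry peptides from a cell's own proteins to its surface, where CD8+ T cells and natural killer cells read them. The expression of 9 genes of this system was compared across the 5 lines of the study: the heavy chains HLA-B, HLA-C, HLA-E and HLA-F, the light chain B2M, the peptide transporter subunits TAP1 and TAP2, tapasin (TAPBP) and the immunoproteasome subunit PSMB9. Members were taken as every row of the deposited values whose platform gene symbols include 1 of these genes, which gave 9 rows of 18708. For 6 rows the annotation gave a single symbol, namely HLA-E, HLA-F, B2M, TAP1, TAP2 and TAPBP. The other 3 rows carry several symbols and are called by both. Row 2948926 belongs to HLA-B and HLA-C, row 2903285 to PSMB9 and the antisense gene PSMB8-AS1, and row 2950145 to HLA-DOB and TAP2. In RefSeq B2M lies on chromosome 15 and the other 8 genes on chromosome 6. The class I heavy chain genes are closely related in sequence, so a probe may read more than its annotated gene.

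Class I molecules are assembled in the endoplasmic reticulum. The proteasome cuts cytosolic proteins, and interferon exchanges its catalytic subunits for those of the immunoproteasome, among them PSMB9. TAP1 and TAP2 form the pump that moves the peptides into the endoplasmic reticulum, and TAPBP bridges this pump to the empty heavy chain, which is held by B2M. HLA-B and HLA-C are classical heavy chains, while HLA-E and HLA-F are less variable ones that natural killer cell receptors also read. The genes are induced by interferon, and several of them by the coactivator NLRC5. Loss of class I expression is a known way in which melanoma cells escape T cells.

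The samples are 20 Affymetrix exon arrays of WM793, an established melanoma line from the vertical growth phase, and of lines made from it that overexpress NME1, a kinase of nucleoside diphosphates and a known suppressor of metastasis. The groups are NME1-P96S, NME1-K12Q and NME1-E5A, each with a mutant construct, NME1-wild-type with the unmutated construct, and Parent, the WM793 line itself. All lines were grown for 3 days in the same medium. Each has 4 arrays, described as technical replicates, and each construct is 1 line, so p-values measure the spread between these arrays and say nothing of other lines with the same construct.

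Values are RMA expression values on the log2 scale. Across arrays the medians lay between 6.27 and 6.50 and the interquartile ranges between 2.19 and 3.16. The row of NME1 and NME1-NME2 was higher than Parent by 0.25 in NME1-P96S, 0.23 in NME1-K12Q, 0.26 in NME1-E5A and 0.28 in NME1-wild-type, and passed in none of the 4 comparisons (limma, lowest adjusted p = 0.850). Of the melanoma markers, SOX10 averaged 9.38, MCAM 9.86 and S100B 8.61 over all arrays, whereas the pigment cell genes PMEL, MLANA and TYRP1 averaged 4.71, 3.69 and 4.17. The 14 measured leukocyte markers averaged between 3.30 (PTPRC) and 8.20 (CD68), and the 7 measured keratinocyte and epithelial markers between 3.61 (EPCAM) and 8.33 (KRT18).

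The promoters of the class I genes are shown first. Any link between these sequences and the values of the rows was not tested. The windows run from 250 bases before to 50 bases after the annotated start and come from RefSeq (GRCh38.p14), 5′ to 3′ on the strand of the gene, and 8 of the 9 genes were matched. Capitals mark 3 motifs searched on both strands, with overlapping hits kept. They are a paired GAA motif of interferon-responsive elements (GAANNGAAA, or the same with GAAA in place of its leading GAA), the TGACG letters of the X2 element, and the inverted CCAAT box ATTGG. The HLA-B window is chr6:31357130-31357429 on the minus strand, HLA-C chr6:31272043-31272342 on the minus strand, HLA-F chr6:29723184-29723483 on the plus strand, B2M chr15:44711267-44711566 on the plus strand and TAP1 chr6:32853655-32853954 on the minus strand.
HLA-B: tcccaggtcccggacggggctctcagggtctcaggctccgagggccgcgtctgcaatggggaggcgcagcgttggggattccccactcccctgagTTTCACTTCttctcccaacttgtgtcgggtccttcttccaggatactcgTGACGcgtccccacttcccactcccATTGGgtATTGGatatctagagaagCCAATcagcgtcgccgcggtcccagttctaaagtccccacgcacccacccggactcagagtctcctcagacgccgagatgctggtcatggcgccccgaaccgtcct
HLA-C: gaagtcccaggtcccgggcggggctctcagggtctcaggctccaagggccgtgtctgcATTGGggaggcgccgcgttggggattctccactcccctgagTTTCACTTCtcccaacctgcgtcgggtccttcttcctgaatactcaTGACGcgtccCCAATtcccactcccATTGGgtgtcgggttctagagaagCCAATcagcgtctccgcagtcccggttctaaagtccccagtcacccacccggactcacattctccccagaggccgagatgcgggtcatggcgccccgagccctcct
HLA-F: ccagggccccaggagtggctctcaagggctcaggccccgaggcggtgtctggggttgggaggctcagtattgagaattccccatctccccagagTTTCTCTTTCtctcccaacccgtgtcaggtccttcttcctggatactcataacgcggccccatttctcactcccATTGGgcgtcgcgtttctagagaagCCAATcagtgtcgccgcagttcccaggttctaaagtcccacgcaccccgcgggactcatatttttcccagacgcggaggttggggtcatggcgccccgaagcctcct
B2M: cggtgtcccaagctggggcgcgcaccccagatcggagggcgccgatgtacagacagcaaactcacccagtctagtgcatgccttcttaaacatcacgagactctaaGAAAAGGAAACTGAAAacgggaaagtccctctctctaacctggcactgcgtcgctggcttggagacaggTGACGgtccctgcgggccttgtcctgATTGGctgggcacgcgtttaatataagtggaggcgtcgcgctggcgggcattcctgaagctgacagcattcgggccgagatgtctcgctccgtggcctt
TAP1: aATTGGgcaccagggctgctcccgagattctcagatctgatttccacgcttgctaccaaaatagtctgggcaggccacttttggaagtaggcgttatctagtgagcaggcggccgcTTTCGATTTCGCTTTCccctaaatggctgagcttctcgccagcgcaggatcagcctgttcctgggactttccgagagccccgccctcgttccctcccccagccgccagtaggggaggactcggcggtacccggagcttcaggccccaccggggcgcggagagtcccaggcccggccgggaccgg

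The paired GAA motif stood 155 bases before the start in HLA-B, 151 in HLA-C and 156 in HLA-F, in each as its reverse complement. B2M held it on the plus strand, in overlapping copies 144 and 138 bases before the start, and TAP1 held overlapping reverse copies 134 and 128 bases before it. Of the 9 windows of the matched genes (TAP1 has 2), 7 held the paired GAA motif, which 10.6% of all 35116 windows of this length hold. ATTGG was found in 6 of 9 windows, against 34.6% of all, and TGACG in 5 of 9, against 24.6%. TGACG stood 106 bases before the start in HLA-B, 105 in HLA-C and 75 in B2M, and was not among the letters of the HLA-F and TAP1 windows shown. HLA-B and HLA-C were 88.5% identical over the aligned window, HLA-B and HLA-F 79.7%, and HLA-B and B2M 49.4%. The TAP1 and PSMB9 windows overlap at their upstream ends, since both genes start next to each other on opposite strands. These matches describe letters in the windows and are not evidence of binding.

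None of the 9 rows passed the test between any 2 lines. A row was called changed at an adjusted p under 0.05 with a fold of at least 1.5, a log2 difference of 0.58, in limma's moderated test over all 18384 features. Against Parent, 0 of 9 rows were called in NME1-P96S, where 0.103% of all features were, 0 in NME1-K12Q (0.00544% of features), 0 in NME1-E5A (0.218%) and 0 in NME1-wild-type (0.0326%). Against NME1-wild-type, 0 of 9 were called in NME1-P96S (0.201% of features), NME1-K12Q (0.0381%) and NME1-E5A (0.207%). Between mutants, 0 of 9 were called in NME1-P96S over NME1-K12Q (0.277%), NME1-P96S over NME1-E5A (0.239%) and NME1-K12Q over NME1-E5A (0.169%). With so few features called in the whole table, a count of 0 among 9 rows lies near the background. At an unadjusted p under 0.05, limma's counts were 1, 1, 0 and 2 rows for NME1-P96S, NME1-K12Q, NME1-E5A and NME1-wild-type over Parent, where 3.14%, 1.48%, 2.98% and 1.38% of all features lay under it. Over NME1-wild-type they were 3, 0 and 1 rows for NME1-P96S (3.39% of features), NME1-K12Q (1.29%) and NME1-E5A (2.4%). Between mutants they were 1 row for NME1-P96S over NME1-K12Q (3.12%), 1 for NME1-P96S over NME1-E5A (4.11%) and 0 for NME1-K12Q over NME1-E5A (2.79%).

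The intervals bound what could have been missed. Of the 90 differences (9 rows in 10 comparisons), 70 had a 95% interval that lay inside 1.5-fold in both directions, and 10 had an interval that excluded 0. All 10 intervals lay inside 1.5-fold for HLA-E, HLA-F, TAP1, TAP2 and TAPBP. This held for 6 of 10 in HLA-B and HLA-C, 6 of 10 in B2M, 5 of 10 in PSMB9 and PSMB8-AS1 and 3 of 10 in HLA-DOB and TAP2. The median log2 difference of the 9 rows was -0.05 in NME1-P96S over Parent, 0.07 in NME1-K12Q, 0.01 in NME1-E5A and 0.07 in NME1-wild-type, while the medians of all features were -0.06, -0.05, -0.04 and -0.03. In NME1-P96S over NME1-wild-type all 9 values were negative, with a median of -0.19 beside -0.04 over all features. The plot of levels on each array shows how far the lines overlap.

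**Figure D1:**
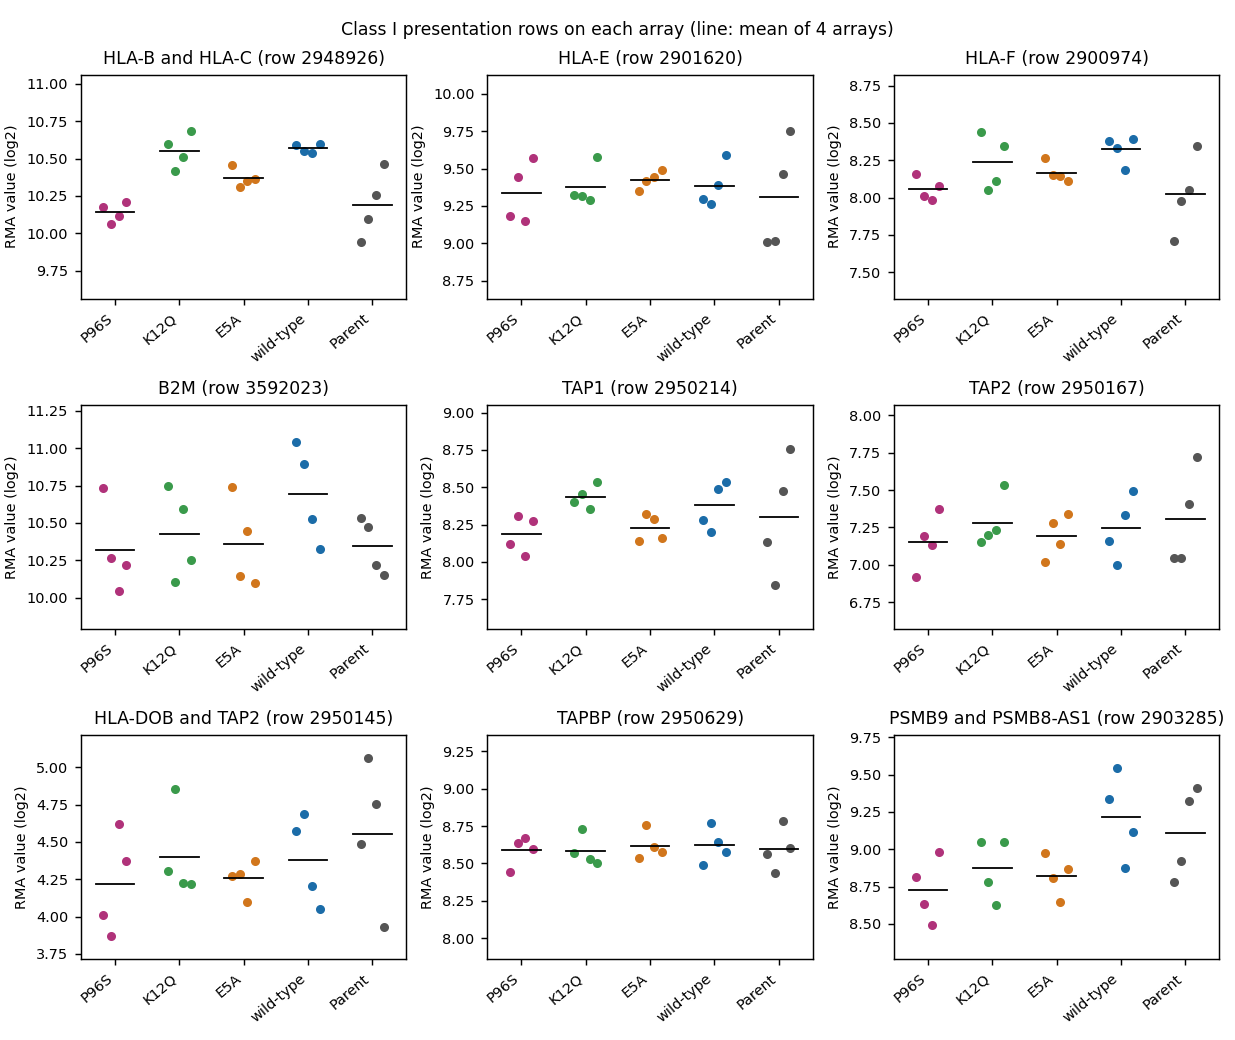
RMA value (log2) of each class I row on every array, with a panel for each row, points for the 4 arrays of a line and a bar at their mean. In the panel of HLA-B and HLA-C the NME1-P96S arrays lie below all those of NME1-K12Q, NME1-E5A and NME1-wild-type, whereas the lines overlap for HLA-E, TAP2 and TAPBP.

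The row of the classical heavy chains had the most pairs of lines whose arrays did not overlap. The row of HLA-B and HLA-C read 10.18, 10.06, 10.12 and 10.21 in NME1-P96S, 10.60, 10.42, 10.51 and 10.68 in NME1-K12Q and 10.45, 10.31, 10.35 and 10.37 in NME1-E5A. It read 10.59, 10.55, 10.53 and 10.60 in NME1-wild-type, against 9.94, 10.10, 10.26 and 10.46 in Parent. Every NME1-P96S array was below every array of the other 3 NME1 lines, and every NME1-wild-type array was above every Parent array. The means were 10.14 ± 0.0661 in NME1-P96S, 10.55 ± 0.114 in NME1-K12Q, 10.37 ± 0.0610 in NME1-E5A, 10.57 ± 0.0312 in NME1-wild-type and 10.19 ± 0.223 in Parent (SD, n = 4 each).

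For this row NME1-P96S differed from NME1-wild-type by -0.43 (SE 0.109, 95% interval -0.65 to -0.20), an amount below 1.5-fold that did not pass (limma, adjusted p = 0.212). Its difference from NME1-K12Q was -0.41 (95% interval -0.64 to -0.18, limma adjusted p = 0.188) and that from NME1-E5A -0.23. From Parent it differed by -0.05, with an interval of -0.28 to 0.18. Over Parent, NME1-wild-type differed by 0.38 (95% interval 0.15 to 0.61, limma adjusted p = 0.997) and NME1-K12Q by 0.36 (0.13 to 0.59). A permutation of the arrays of NME1-wild-type and Parent (exact, two-sided) gave p = 0.0286, the smallest it can give, and 0.841 adjusted over the 36 such tests. A single row at that smallest p cannot pass after adjustment over 36 tests, so the adjusted value decides nothing here. The differences of NME1-P96S from NME1-wild-type and from NME1-K12Q kept their sign in all 31 alternatives, between -0.45 and -0.39 and between -0.47 and -0.37. Their adjusted p in limma was lowest, at 0.0107 and 0.00958, with the interquartile range of each array as a covariate, and the fold stayed under 1.5.

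Over all 5 lines together, HLA-B and HLA-C had the smallest p of the 9 rows in limma's moderated F test (adjusted p = 0.176, rank 161 of all features by p), a test that 0.582% of features passed and 0 of the 9 rows. The row passed this F test when the interquartile range of each array was a covariate (limma, adjusted p = 0.00789) and when Parent replicate 4, its highest Parent array, was left out (limma, adjusted p = 0.0449). From highest to lowest the lines ranked NME1-wild-type, NME1-K12Q, NME1-E5A, Parent and NME1-P96S, and no pair of neighbours in this order differed by more than 0.18. Groups without overlap were seen for 1 of the 9 rows in NME1-wild-type over Parent (higher, 0.354% of features) and for 2 in NME1-P96S over NME1-wild-type (lower, 0.914%). In NME1-P96S over NME1-K12Q there were 2 such rows (lower, 1.22%). NME1-P96S over NME1-E5A had 1 (lower, 1.70%), NME1-E5A over NME1-wild-type had 1 (lower, 1.48%) and NME1-K12Q over NME1-E5A had 1 (higher, 1.69%). HLA-B and HLA-C was such a row in all but the last of these, which was TAP1.

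HLA-F, a heavy chain with a limited tissue range, also had its highest mean in NME1-wild-type. It read 8.16, 8.01, 7.98 and 8.08 in NME1-P96S, 8.44, 8.05, 8.11 and 8.35 in NME1-K12Q and 8.26, 8.15, 8.14 and 8.11 in NME1-E5A. It read 8.38, 8.33, 8.18 and 8.40 in NME1-wild-type, against 7.71, 7.98, 8.05 and 8.35 in Parent. All NME1-P96S arrays were below all NME1-wild-type arrays, and Parent overlapped every other line. The difference was -0.26 in NME1-P96S over NME1-wild-type (SE 0.126, limma adjusted p = 0.999) and 0.30 in NME1-wild-type over Parent (95% interval 0.04 to 0.56, limma adjusted p = 0.997). No neighbours in the order of line means, from NME1-wild-type through NME1-K12Q, NME1-E5A and NME1-P96S to Parent, differed beyond the spread.

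HLA-E, the ligand of the natural killer cell receptor NKG2A, varied more between arrays of a line than between lines. It read 9.18, 9.44, 9.15 and 9.57 in NME1-P96S, 9.32, 9.32, 9.29 and 9.58 in NME1-K12Q and 9.35, 9.42, 9.45 and 9.49 in NME1-E5A. It read 9.30, 9.26, 9.39 and 9.59 in NME1-wild-type, against 9.01, 9.02, 9.46 and 9.75 in Parent. Parent alone spanned the values of all other lines. The line means covered a range of 0.11, within the pooled SD of 0.214. The difference from Parent farthest from 0 was that of NME1-E5A, 0.11 (95% interval -0.20 to 0.43).

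B2M, the light chain shared by all class I molecules, was highest on average in NME1-wild-type. It read 10.73, 10.26, 10.04 and 10.22 in NME1-P96S, 10.74, 10.10, 10.59 and 10.25 in NME1-K12Q and 10.74, 10.14, 10.45 and 10.10 in NME1-E5A. It read 11.04, 10.89, 10.53 and 10.32 in NME1-wild-type, against 10.53, 10.47, 10.22 and 10.15 in Parent. Replicate 1 was the highest array in all 5 lines, which was true of 3.27% of all features, and every pair of lines overlapped. The difference was 0.35 in NME1-wild-type over Parent (SE 0.193, 95% interval -0.05 to 0.75, limma adjusted p = 0.997) and -0.38 in NME1-P96S over NME1-wild-type (-0.78 to 0.02, limma adjusted p = 0.999). Its intervals are wider than those of the heavy chains, and a 1.5-fold difference in either of these directions lies inside them.

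Neither transporter gene passed in any comparison. TAP1, the subunit encoded beside PSMB9, read 8.12, 8.31, 8.04 and 8.27 in NME1-P96S, 8.40, 8.46, 8.36 and 8.53 in NME1-K12Q and 8.14, 8.32, 8.29 and 8.16 in NME1-E5A. It read 8.28, 8.20, 8.49 and 8.54 in NME1-wild-type, against 8.13, 7.85, 8.48 and 8.76 in Parent. All NME1-K12Q arrays were above all NME1-P96S and all NME1-E5A arrays, and Parent again spanned every other line. The difference was -0.25 in NME1-P96S over NME1-K12Q (95% interval -0.57 to 0.06) and 0.21 in NME1-K12Q over NME1-E5A (-0.11 to 0.52), and neither passed. TAP1 averaged 8.19 ± 0.127 in NME1-P96S, 8.38 ± 0.162 in NME1-wild-type and 8.30 ± 0.398 in Parent (SD, n = 4 each).

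TAP2, the other subunit, read 6.92, 7.19, 7.13 and 7.37 in NME1-P96S, 7.15, 7.20, 7.23 and 7.53 in NME1-K12Q and 7.02, 7.28, 7.14 and 7.34 in NME1-E5A. It read 7.16, 7.00, 7.33 and 7.49 in NME1-wild-type, against 7.05, 7.04, 7.41 and 7.72 in Parent. Replicate 4 was the highest array in all 5 lines for TAP2, and also for HLA-E, which 1.69% of all features showed. The line means of TAP2 covered a range of 0.15, within the pooled SD of 0.221. The row shared by HLA-DOB, a class II chain, and TAP2 averaged 4.22 ± 0.339 in NME1-P96S, 4.40 ± 0.306 in NME1-K12Q, 4.26 ± 0.115 in NME1-E5A, 4.38 ± 0.300 in NME1-wild-type and 4.56 ± 0.480 in Parent (SD, n = 4 each). This shared row is low, with a mean over all arrays above 15.7% of features. It correlated with TAP2's own row at r = -0.33 over the 20 arrays, so values of TAP2 are read from that row. With means of cell type markers its r ranged from 0.44 (fibroblast) to 0.90 (leukocyte).

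Tapasin (TAPBP), which edits the peptides loaded onto class I, had the most similar line means of the 9 rows. They were 8.59 ± 0.100 in NME1-P96S, 8.58 ± 0.0995 in NME1-K12Q, 8.62 ± 0.0955 in NME1-E5A, 8.62 ± 0.118 in NME1-wild-type and 8.60 ± 0.144 in Parent (SD, n = 4 each). The 20 arrays lay between 8.44 and 8.78, and every line overlapped every other. The difference of NME1-P96S from Parent was -0.01, with a 95% interval of -0.23 to 0.21.

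The row of PSMB9, a catalytic subunit of the immunoproteasome, and PSMB8-AS1 had lower means in the 3 mutant lines. It read 8.81, 8.64, 8.49 and 8.98 in NME1-P96S, 9.05, 8.78, 8.63 and 9.05 in NME1-K12Q and 8.97, 8.81, 8.65 and 8.87 in NME1-E5A. It read 9.34, 9.54, 8.87 and 9.11 in NME1-wild-type, against 8.78, 8.92, 9.32 and 9.41 in Parent. The mutant lines overlapped with each other, with NME1-wild-type and with Parent. Against NME1-wild-type the difference was -0.49 in NME1-P96S (SE 0.167, 95% interval -0.83 to -0.14, limma adjusted p = 0.850), -0.34 in NME1-K12Q and -0.39 in NME1-E5A. Against Parent the difference was -0.38 in NME1-P96S (-0.73 to -0.03, limma adjusted p = 0.850), -0.23 in NME1-K12Q, -0.29 in NME1-E5A and 0.11 in NME1-wild-type. The NME1-P96S comparisons share their arrays and are no separate evidence, and whether the values belong to PSMB9 or to the antisense gene cannot be told apart on this row.

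**Figure D2:**
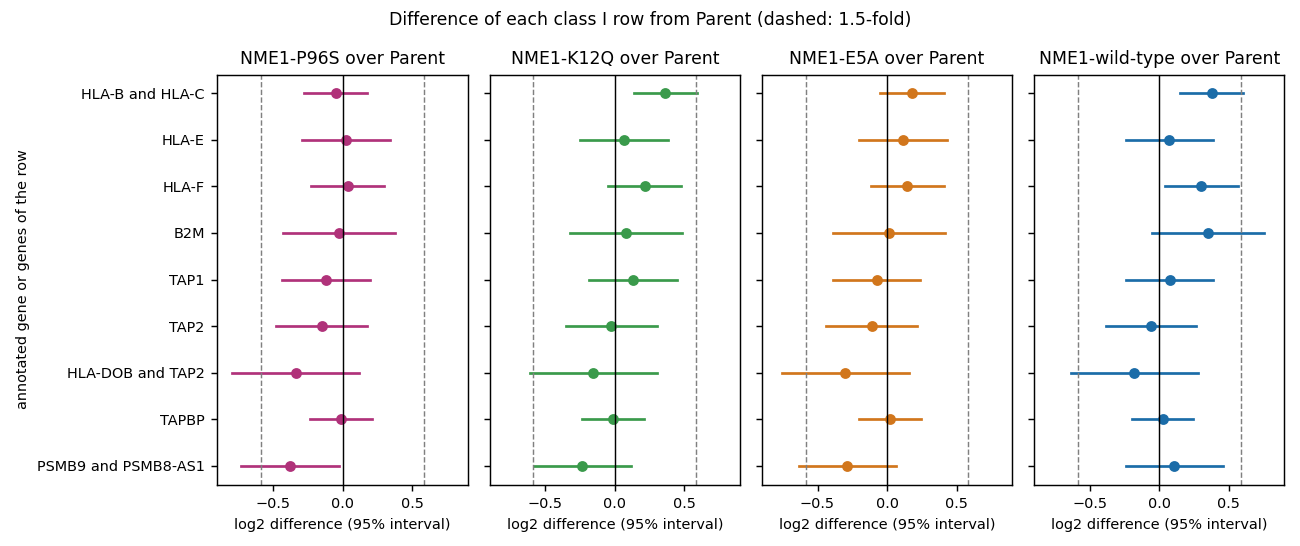
Log2 difference of each class I row from Parent (point) with its 95% interval (line), with a panel for each NME1 line, and dashed lines at 1.5-fold. The interval excludes 0 for HLA-B and HLA-C in NME1-K12Q and NME1-wild-type, for HLA-F in NME1-wild-type and for PSMB9 and PSMB8-AS1 in NME1-P96S, and no point reaches 1.5-fold.

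The Parent arrays were the most spread for nearly every class I row. Parent had the highest SD of the 5 lines in 8 of 9 rows, all but B2M, and in 38.3% of all features. The median SD of the 9 rows was 0.185 in NME1-P96S, 0.172 in NME1-K12Q, 0.0955 in NME1-E5A, 0.162 in NME1-wild-type and 0.305 in Parent. Parent replicates 3 and 4 were above replicates 1 and 2 for HLA-B and HLA-C, HLA-F, HLA-E and TAP1. The same held for TAP2's own row, TAPBP and the row of PSMB9 and PSMB8-AS1, and the reverse for B2M. The spread of the Parent arrays enters every comparison with Parent above. Its source was not tested.

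Several pairs of class I rows moved together over the 20 arrays, as a description over arrays that share lines, labelling and normalisation. HLA-B and HLA-C correlated with HLA-F at r = 0.88, and at 0.90 after the line means were removed. HLA-E correlated with TAP2 at 0.85 and with TAP1 at 0.78 (0.92 and 0.89 within lines), and TAP1 with TAP2 at 0.80. Within lines HLA-B and HLA-C also correlated with HLA-E at 0.73, with PSMB9 and PSMB8-AS1 at 0.71 and with TAP2 at 0.62, and HLA-F with PSMB9 and PSMB8-AS1 at 0.75. B2M correlated with HLA-B and HLA-C at r = 0.30 (-0.05 within lines) and with HLA-F at 0.35 (0.13 within lines). It ran opposite to HLA-E, with r = -0.41 (-0.52 within lines), and to TAP2, with r = -0.57 (-0.72 within lines). The line means of B2M nevertheless ranked in the same order as those of HLA-B and HLA-C, over ranges of 0.38 and 0.43. TAP1 and the row of its neighbour PSMB9 correlated at 0.37. TAPBP correlated with no class I row beyond 0.38 in size.

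**Figure D3:**
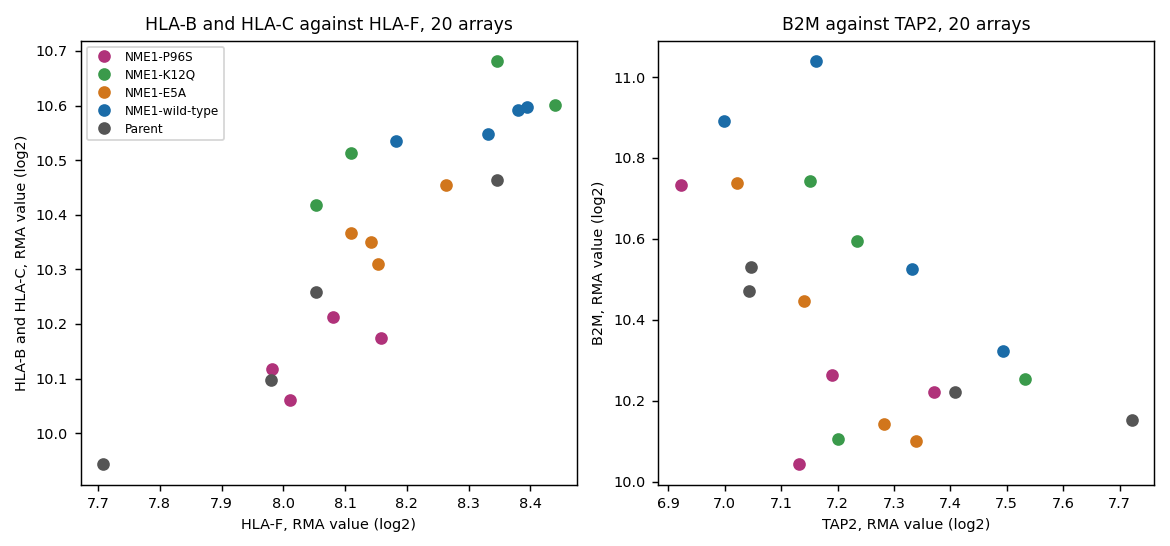
RMA values (log2) of the row of HLA-B and HLA-C against HLA-F (left) and of B2M against TAP2 (right), with a point for each of the 20 arrays coloured by line. The left panel shows values that increase together (r = 0.88), and the right panel an opposite relation (r = -0.57).

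The genes whose values over the 20 arrays were most like each row differed between rows. For HLA-B and HLA-C they were HLA-F (r = 0.88), the interferon-induced gene IFI6 (0.85) and STEAP3 (0.80). For B2M they were ELOC, a subunit of elongin and of ubiquitin ligases (0.95), and the proteasome subunits PSMC6 (0.95) and PSMA3 (0.94). HLA-F was most like GMPPA (0.81), TAP1 most like PARP12 (0.88), which interferon induces, and TAP2 most like PREB (0.93). HLA-E was most like POC1A (0.91), TAPBP most like SKI (0.88), and the row of PSMB9 and PSMB8-AS1 most like FLOT1 (0.90). Over the 5 line means the single closest gene to each row had r of at least 0.99, which carries little information with 5 points.

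In the rest of the class I pathway no gene passed either. Of 34 further genes listed, among them chaperones, peptide trimming enzymes and proteasome subunits, 27 were measured, and 0 were called in any of the 10 comparisons. Their median differences from Parent were 0.05 in NME1-P96S, 0.03 in NME1-K12Q, 0.08 in NME1-E5A and 0.09 in NME1-wild-type. The chaperone CALR averaged 11.07 ± 0.0822 in NME1-P96S and 11.02 ± 0.0860 in Parent, and the proteasome subunit PSMB7 averaged 10.96 ± 0.165 in NME1-P96S and 11.01 ± 0.104 in Parent (SD, n = 4 each). PSMB8, the immunoproteasome subunit next to TAP1, differed by -0.45 in NME1-P96S over NME1-wild-type without passing (limma, adjusted p = 0.999), and is named after its value was seen. Of 37 regulators of class I, including interferon receptors, STAT and IRF factors and the X-box and NF-Y factors, 31 were measured and 0 were called. STAT3 differed from Parent by 0.12 in NME1-P96S and IFNGR2, a chain of the interferon gamma receptor, by 0.04.

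Interferon-induced and class II genes, given beside the class I rows, did hold called genes, and all these calls but 1 were in NME1-P96S. Of 42 interferon-induced genes measured, 5 fell in NME1-P96S over NME1-K12Q (0.174% of all features fell), 3 fell over NME1-wild-type (0.131%) and 1 fell over Parent (0.0544%), and 0 rose in any of these. Over NME1-E5A 0 were called. The median difference was -0.15 from NME1-K12Q, -0.22 from NME1-wild-type, -0.20 from Parent and -0.19 from NME1-E5A, beside -0.02, -0.04, -0.06 and -0.03 over all features. IFI6, which stabilises mitochondria and blocks virus replication sites, averaged 8.64 ± 0.226 in NME1-P96S, 9.81 ± 0.266 in NME1-K12Q and 9.56 ± 0.243 in NME1-wild-type (SD, n = 4 each). Its difference was -1.17 from NME1-K12Q (limma, adjusted p = 0.00633) and -0.92 from NME1-wild-type (limma, adjusted p = 0.0470). OAS1, a sensor of double-stranded RNA, averaged 5.22 ± 0.243 in NME1-P96S and 6.15 ± 0.388 in Parent, a difference of -0.93 (limma, adjusted p = 0.0329). OAS2 fell by 0.94 and IFI44L fell by 0.80 in NME1-P96S over NME1-K12Q (limma, adjusted p = 0.00633 and 0.0121). CXCL11, a T cell chemokine, averaged 5.58 ± 0.472 in NME1-P96S, 4.64 ± 0.408 in NME1-K12Q and 7.13 ± 0.708 in NME1-wild-type. Its difference from NME1-wild-type was -1.55 in NME1-P96S (limma, adjusted p = 0.0470) and -2.49 in NME1-K12Q (limma, adjusted p = 0.000915), where it was the 1 interferon-induced gene called (0.0326% of all features fell). LGALS3BP, among the 2 highest of this list, differed by 0.41 in NME1-P96S over NME1-wild-type without passing.

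Over NME1-wild-type the interferon count changed when single arrays were left out, among them arrays of lines outside this comparison. Those arrays enter the test only through the spread estimated over all lines. It was 0 or 1 without any of Parent replicates 1 and 3, NME1-wild-type replicates 1 to 4, NME1-E5A replicates 2 to 4, NME1-K12Q replicates 1 to 4 or NME1-P96S replicates 1, 2 and 4. OAS1 over Parent was not called without any of Parent replicates 1 to 3, NME1-wild-type replicate 4, NME1-E5A replicates 3 and 4, NME1-K12Q replicate 3 or NME1-P96S replicates 1, 2 and 4, nor with trend and robust variances. The count of 5 over NME1-K12Q was 3 without NME1-K12Q replicate 1 or 4. Over the 20 arrays the mean of the interferon-induced genes correlated with the row of PSMB9 and PSMB8-AS1 at r = 0.68, with HLA-B and HLA-C at 0.60 and with HLA-E at 0.13.

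MHC class II genes, which present peptides taken up from outside, differed in the other direction. The list held 12 class II genes and genes of their loading, of which 7 were measured, CD74 and the protease CTSS among them. HLA-DRB1, HLA-DQA1, HLA-DQB1, HLA-DMA and HLA-DOB had no row of their own. Of the 7, HLA-DPA1, CD74 and HLA-DPB1 rose in NME1-P96S over Parent (0.0490% of all features rose). The same 3 rose over NME1-K12Q (0.103%). HLA-DPA1 averaged 10.55 ± 0.285 in NME1-P96S, 9.66 ± 0.190 in NME1-K12Q and 9.47 ± 0.399 in Parent, a difference from Parent of 1.07 (limma, adjusted p = 0.0166). CD74, the invariant chain that guards the class II groove, averaged 10.22 ± 0.0981 in NME1-P96S, 9.37 ± 0.156 in NME1-K12Q and 9.26 ± 0.347 in Parent, a difference from Parent of 0.96 (limma, adjusted p = 0.0108). HLA-DPB1 rose by 0.93 (limma, adjusted p = 0.0313). Over NME1-wild-type and over NME1-E5A 0 genes of this list were called in NME1-P96S, with medians of 0.51 and 0.46 and 6 of 7 positive in each. Over Parent the list's median was 0.85 in NME1-P96S, 0.02 in NME1-K12Q, 0.41 in NME1-E5A and 0.25 in NME1-wild-type, with 6, 4, 6 and 6 of 7 positive. On the same arrays the row of HLA-B and HLA-C differed from Parent by -0.05. Without NME1-P96S replicate 4 the count over Parent was 0, and without any of Parent replicates 1 to 3 or NME1-P96S replicates 1 and 2 it was 1. Over NME1-K12Q it was 0 without NME1-K12Q replicate 3 and 1 without any of NME1-K12Q replicates 2 and 4 or NME1-P96S replicates 1 and 4.

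CIITA, the coactivator of class II genes, differed by 0.61 in NME1-P96S over NME1-wild-type (limma, adjusted p = 0.0527), by 0.60 over NME1-E5A (limma, adjusted p = 0.0545) and by 0.51 over Parent (limma, adjusted p = 0.305). NLRC5, the coactivator of class I genes, differed by -0.01, 0.11 and -0.08. Both are named after their values were seen. CIITA did not pass in these comparisons. The count of regulators called was 0 in 22 of the 31 alternatives over NME1-wild-type and in 23 over NME1-E5A, and 1 in the others. The contrast of the lists in NME1-P96S is shown in the plot of single genes by list.

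**Figure D4:**
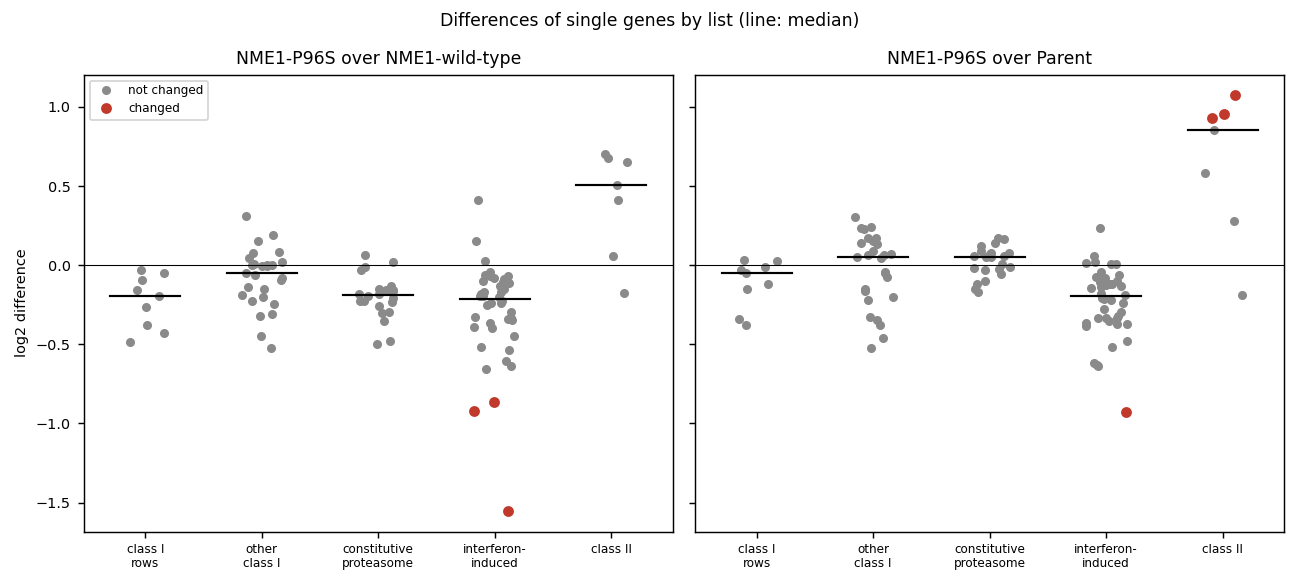
Log2 difference of single genes by list in NME1-P96S over NME1-wild-type (left) and over Parent (right), with a point for each gene or class I row, called genes in red and a bar at the median. The 9 class I rows lie between -0.49 and -0.03 on the left and between -0.38 and 0.04 on the right, with 0 called. On the right 3 genes of the class II list, which includes loading genes, are called.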

How the data were processed

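The authors normalised the arrays with RMA, per the series design text, and the deposited values are on the log2 scale. The submitters' processing notes also name limma. Software versions, genome build and annotation release are not given in the sources used here. All 20 columns were used and 0 were left out. Line and replicate number come from the titles.

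Rows were named with the platform annotation, which lists 17608 of the 18708 rows and gives 14735 a single symbol, 2873 several and 1100 none listed. Where a gene had several single-symbol rows, that with the highest mean was kept, leaving 18384 features. A mean per line was fitted over all 20 arrays with limma 3.58.1 in R 4.3.3 (lmFit, eBayes, 15 residual degrees of freedom), and all 10 pairs of lines were tested, two-sided, with Benjamini-Hochberg adjustment over all features. The fit was tested on simulated data. Array number limits the precision. Promoters from RefSeq (GRCh38.p14) were aligned with Biopython 1.88.

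The 31 alternatives were other scalings, covariates, filters, variance models, thresholds and arrays left out. The members and lists were chosen with earlier results of these data known. All member rows are described. From each list up to 4 called genes per comparison and the 2 of highest mean are named, and for each member row the genes with the highest correlation.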

Additional observations from a re-analysis of the deposited data

Results flagged for a closer look

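Among the 45 sets of 4 arrays (9 rows in 5 lines), 2 held an array far from the other 3, where chance flags about 1 in 20. For HLA-E, NME1-K12Q replicate 4 read 9.58, while the nearest of the other NME1-K12Q arrays read 9.32. Its gap was 0.876 of the range of the 4 arrays. For the row of HLA-DOB and TAP2, NME1-K12Q replicate 2 read 4.86, while the nearest of the other NME1-K12Q arrays read 4.31, a gap of 0.860 of the range. NME1-K12Q replicate 2 is also among the 3 arrays with the narrowest interquartile range.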

How the results depend on the processing

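The count of class I rows changed was 0 in all 10 comparisons under every alternative run. The count of rows that differed over the 5 lines in the F test was 0, but 1 with the interquartile range of each array as a covariate, and 0 to 1 when each array was left out in turn (1 without Parent replicate 4). That row was HLA-B and HLA-C in both. Its F test gave a limma adjusted p of 0.0520 after quantile normalisation, 0.0964 with the replicate block, 0.0764 with trend and robust variances and 0.314 with arrays centred on their median. In NME1-P96S over NME1-wild-type and over NME1-K12Q, 7 of the 9 rows kept their sign in all 31 alternatives, in NME1-P96S over Parent 3 of 9. Replicate numbers were not taken as pairs, since no label ties them and 25 of 40 same-numbered pairs of arrays, not all, correlated over 0.1 (-0.85 to 0.81). They hold some shared structure: the median was 0.24 for equal and -0.05 for different numbers, and 11 of 20 arrays were closest to their own number. The count of all features passing the F test was 107, and 60 to 356 over the alternatives. Features changed over Parent numbered 19 in NME1-P96S (0 to 37), 1 in NME1-K12Q (0 to 9), 40 in NME1-E5A (2 to 67) and 6 in NME1-wild-type (0 to 11). Over NME1-wild-type they numbered 37 in NME1-P96S (7 to 97), 7 in NME1-K12Q (0 to 21) and 38 in NME1-E5A (2 to 60). Between mutants they numbered 51 in NME1-P96S over NME1-K12Q (1 to 87), 44 in NME1-P96S over NME1-E5A (0 to 204) and 31 in NME1-K12Q over NME1-E5A (5 to 61). Tested against 1.5-fold itself, or with only the 2 lines compared in the fit (neither run for the F test), the interferon-induced and class II counts of NME1-P96S were 0. With trend and robust variances the interferon-induced count of NME1-P96S over Parent was 0. The interferon-induced count over NME1-wild-type reached 6 with the interquartile range as a covariate. The cause of these changes was not tested.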

Other observations

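Of the 24 proteasome subunits listed (plotted as constitutive proteasome), 22 were measured and 0 were called in any comparison. The list holds PSMA, PSMC and PSMD genes with PSMB1 to PSMB4. The catalytic subunits PSMB5, PSMB6 and PSMB7 stand among the other class I genes. This list thus does not tell the constitutive proteasome from the immunoproteasome. In NME1-wild-type over Parent 21 of the 22 differences were positive, with a median of 0.24 beside -0.03 over all features. The mean of the subunits, each centred on its own mean, was 0.34, 0.31, -0.01 and -0.03 in NME1-wild-type replicates 1 to 4, against -0.01, -0.21, -0.14 and 0.09 in Parent, so replicates 1 and 2 carry the difference. In NME1-P96S over NME1-wild-type 2 of 22 were positive, with a median of -0.19 beside -0.04, and in NME1-K12Q over NME1-wild-type 3 of 22, with a median of -0.19. The mean of these subunits correlated with B2M at r = 0.82 over the 20 arrays, and with HLA-B and HLA-C at 0.40. PSMB4 and PSMB3 had the highest means of the list. These comparisons share the NME1-wild-type arrays.

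Other genes of the major histocompatibility region, outside the class I pathway, were measured by 19 of 28 listed, and 0 were called. Their median difference from Parent was -0.03 in NME1-P96S, -0.09 in NME1-K12Q, -0.04 in NME1-E5A and -0.01 in NME1-wild-type. RPS18 and BAG6 had the highest means of this list. Its mean correlated with the row of PSMB9 and PSMB8-AS1 at r = 0.64 and with HLA-B and HLA-C at 0.27 over the 20 arrays.

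The row of HLA-DOB and TAP2 correlated with the means of all 5 marker lists over the 20 arrays. The r was 0.90 for leukocyte, 0.89 for endothelial, 0.89 for keratinocyte and epithelial, 0.55 for melanocyte and melanoma and 0.44 for fibroblast markers. With TAP2's own row it was -0.33. On the 3 arrays of narrowest interquartile range the row was highest within its line. It read 5.06 in Parent replicate 2, 4.86 in NME1-K12Q replicate 2 and 4.62 in NME1-P96S replicate 3. The centred leukocyte means there were 0.72, 0.27 and 0.43, also the highest of each line. The source of these correlations was not tested. The genes most like it were RFX6 (0.97), ESRRG (0.95) and NXT1 (0.94).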
